A study of Mus musculus with 8 samples.

Results

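The genes described here encode the vacuolar proton pump (V-ATPase), the proteins that accompany or assemble it, and the chloride transporters of endosomes and lysosomes. They were chosen by symbol: names beginning with Atp6v0, Atp6v1 or Atp6ap, together with Tcirg1, Rnasek, Dmxl1, Dmxl2, Wdr7, Rogdi, Tldc1, Clcn3 to Clcn7 and Ostm1, without pseudogene copies. This matched 38 of the 55276 genes in the count table, namely 13 of the V1 sector, 11 of the V0 sector, 4 accessory genes or genes named after a subunit, 4 of the assembly complex and 6 of chloride transport. Tldc1 had no row under that symbol. RefSeq lists it as a synonym of Meak7, which was measured separately.

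Bulk RNA was sequenced from cells of the esophageal epithelium of C57BL6 mice aged 14 to 15 weeks. The cells had been sorted as live (DAPI-negative) and positive for integrin beta-1, a surface receptor of basal keratinocytes. They were divided by Cyto-ID, a fluorescent dye that labels autophagic vesicles, into a Cyto-ID Low and a Cyto-ID High fraction, without any other treatment or genetic change named in the labels. The animals Female1, Female2, Male1 and Male2 each gave 1 library of each fraction, which makes 4 Low and 4 High libraries.

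The V-ATPase is a rotary pump. Its cytosolic V1 sector hydrolyses ATP and turns a rotor, and its membrane-embedded V0 sector carries protons into the lumen of endosomes, lysosomes and the Golgi, or out of the cell where the pump sits in the plasma membrane. The 2 sectors separate and rejoin in a regulated way, and chloride moved by exchangers of the ClC family balances the charge of the pumped protons.

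The libraries held 26285150 to 29301054 counts. Levels are given as CPM, counts per 1000000 of the library's total after that total was multiplied by its scaling factor (TMM, described below). The labelled epithelial identity was checked against marker genes. All 7 basal keratinocyte markers fell in the High fraction (edgeR's quasi-likelihood test with Benjamini-Hochberg adjustment, threshold 0.05), with summed levels of 20547 to 24411 CPM in Low and 2666 to 4369 CPM in High. All 6 suprabasal markers rose, from sums of 7803 to 23780 CPM in Low to 131711 to 227047 CPM in High. The fractions thus differed in the layer of the epithelium that their RNA marks, and the part of this difference in the values below was not tested. In bulk RNA, fewer cells of a type and less RNA per cell cannot be told apart. Markers of leukocytes summed to 70.8 to 116 CPM in Low and 25.5 to 135 CPM in High, and those of fibroblasts to 308 to 480 CPM and 36.6 to 456 CPM, with High Male2 lowest for both. Gastric gland markers summed to 18.3 CPM in Low Female2 and 110 CPM in High Female2, and to at most 0.977 CPM in the other libraries.

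RNA of most genes of the pump was more abundant in the Cyto-ID High fraction. Only RNA was measured here and below, and neither the proteins nor the assembled pump were. Of the 38 genes, 32 passed the filter on low counts, and of these 26 rose, 1 fell and 5 did not pass the test (edgeR, adjusted p threshold 0.05). Across all 17344 genes tested, 48.7% were called, 23.4% higher and 25.3% lower. The median log2 fold change (High minus Low) was 1.33 over the 32 genes and −0.09 over all genes tested. The CPM values of the fractions did not overlap for 26 genes in the higher direction and 1 in the lower, where 23.6% and 24.9% of all genes tested did so. By sector, 9 of 10 tested V1 genes rose (median 1.21), as did 8 of 10 V0 genes (1.85), 2 of 2 accessory genes (1.43), 3 of 4 assembly genes (0.99) and 4 of 6 chloride genes (1.21).

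**Figure D1:**
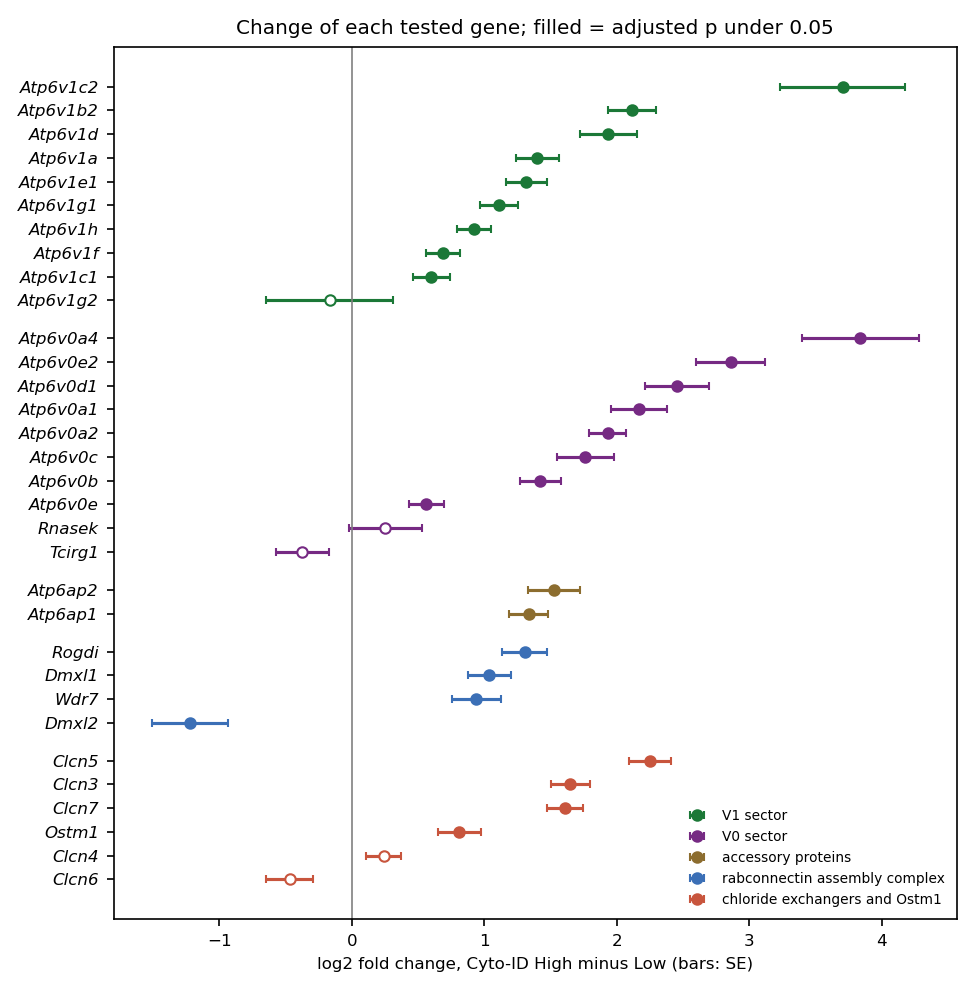
Log2 fold change (High minus Low, horizontal axis) of the 32 tested genes with its SE as a bar, grouped and coloured by role, with filled points for an adjusted p under 0.05. The 26 genes called higher had fold changes of 0.56 to 3.84, led by Atp6v0a4 and Atp6v1c2, and Dmxl2 is the gene called lower.

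The size of these changes depended on how libraries were scaled. The default scaling, the trimmed mean of M values (TMM), gave factors of 1.16 to 1.30 in Low and 0.679 to 0.944 in High. Scaling by total counts alone shifted the log2 fold changes of all genes by a median of −0.56, placed the median of all genes at −0.64 and moved the share of called genes that were higher from 48.0% to 20.5%. Under total counts, 21 of the genes described here were called higher and 3 lower, where 61.7% of all genes tested were called, 12.6% higher and 49.1% lower. Atp6v1c1, Atp6v1f, Atp6v0e, Wdr7 and Ostm1 then lost their calls with log2 fold changes of 0.03, 0.12, 0.00, 0.35 and 0.24, while Tcirg1 and Clcn6 became called as lower. The summed level of all 38 genes was 1230 to 1445 TMM-scaled CPM in Low and 3178 to 4215 in High. Per 1000000 total counts, without TMM, it was 1448 to 1673 in Low and 2861 to 3206 in High.

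**Figure D2:**
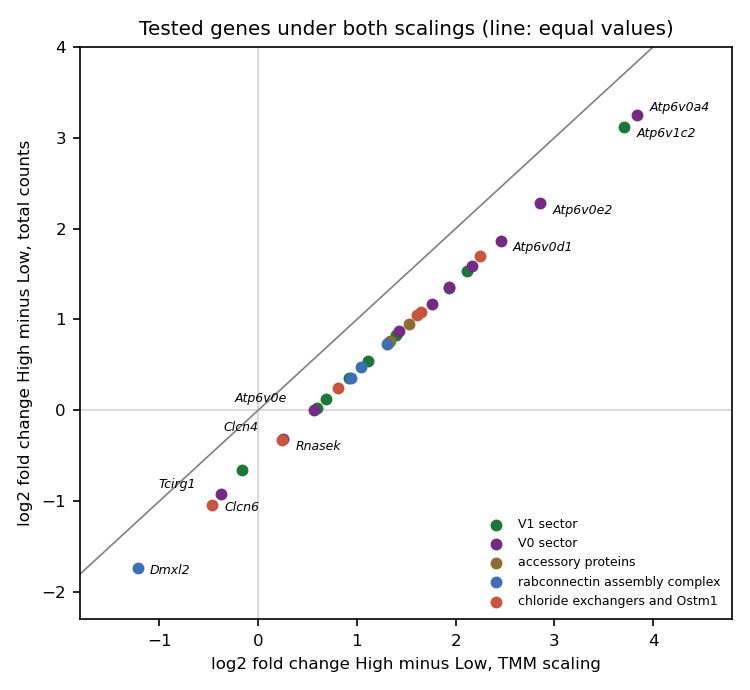
Log2 fold change (High minus Low) of the 32 tested genes under TMM scaling (horizontal axis) and under total counts (vertical axis), coloured by role, with the line of equal values. All points lie below the line, by a median of 0.57, and Rnasek and Clcn4 move from above 0 to below it.

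Promoters were examined because many lysosomal and V-ATPase genes carry CACGTG, the palindromic E-box core within the sites bound by the transcription factor TFEB and its relatives. RefSeq windows (assembly GRCm38.p6) from 250 bases before to 50 bases after the transcription start were available for 28 of the 38 genes. CACGTG, which reads the same on both strands, occurred in windows of 7 of these 28 genes (25%), and in windows of 2187 of all 27025 genes in the table (8.09%). The longer TCACGTG, searched on both strands and always overlapping the shorter word, was present in the same number of these genes and in 4.29% of all genes. Of the 7 genes with the word, Atp6v0b, Atp6v0d1, Atp6v0e, Atp6v1a and Clcn7 rose in the High fraction, and Clcn4 and Clcn6 did not pass the test. Of the 21 without it, 14 rose, 1 fell, 2 did not pass the test and 4 were not tested. Over all genes tested, 23.4% were called higher and 25.3% lower. These shares were not counted separately for all genes with and without the word. A match describes the letters in the window and says nothing of binding.

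The stretches below run 5′ to 3′ on the gene's own strand from 160 bases before to 20 after the start, with CACGTG in capitals. They show the 7 genes with the word, and Atp6v0a4, the gene with the largest rise, whose window lacks it. The positions are chr4:117887310-117887489 (Atp6v0b, minus strand), chr8:105566045-105566224 (Atp6v0d1, minus strand), chr17:26676236-26676415 (Atp6v0e, plus strand), chr16:44139240-44139419 (Atp6v1a, minus strand), chr17:25133231-25133410 (Clcn7, plus strand), chr7:7299538-7299717 (Clcn4, minus strand), chr4:148038794-148038973 (Clcn6, minus strand) and chr6:38124567-38124746 (Atp6v0a4, minus strand).
Atp6v0b: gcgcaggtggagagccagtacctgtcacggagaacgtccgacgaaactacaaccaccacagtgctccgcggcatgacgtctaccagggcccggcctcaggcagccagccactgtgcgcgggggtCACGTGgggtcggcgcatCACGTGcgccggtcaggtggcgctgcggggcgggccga
Atp6v0d1: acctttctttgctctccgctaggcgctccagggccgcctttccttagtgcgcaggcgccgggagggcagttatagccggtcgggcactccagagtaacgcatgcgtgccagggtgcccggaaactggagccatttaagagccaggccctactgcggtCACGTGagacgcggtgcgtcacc
Atp6v0e: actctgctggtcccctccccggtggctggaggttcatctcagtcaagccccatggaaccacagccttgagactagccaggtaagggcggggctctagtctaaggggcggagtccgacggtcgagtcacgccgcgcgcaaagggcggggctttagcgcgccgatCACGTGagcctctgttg
Atp6v1a: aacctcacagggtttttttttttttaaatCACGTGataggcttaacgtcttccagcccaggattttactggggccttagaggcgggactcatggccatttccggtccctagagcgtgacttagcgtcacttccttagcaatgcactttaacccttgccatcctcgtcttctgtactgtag
Clcn7: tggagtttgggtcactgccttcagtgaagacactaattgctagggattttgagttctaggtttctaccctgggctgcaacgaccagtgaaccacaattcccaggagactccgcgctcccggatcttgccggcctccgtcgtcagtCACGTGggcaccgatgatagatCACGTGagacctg
Clcn4: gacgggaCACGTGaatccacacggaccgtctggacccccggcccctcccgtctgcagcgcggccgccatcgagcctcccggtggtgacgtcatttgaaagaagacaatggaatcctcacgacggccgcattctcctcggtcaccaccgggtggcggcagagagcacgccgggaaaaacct
Clcn6: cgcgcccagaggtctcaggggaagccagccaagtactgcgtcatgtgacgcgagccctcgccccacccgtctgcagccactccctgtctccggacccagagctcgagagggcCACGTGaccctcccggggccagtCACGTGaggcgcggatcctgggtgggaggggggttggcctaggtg
Atp6v0a4: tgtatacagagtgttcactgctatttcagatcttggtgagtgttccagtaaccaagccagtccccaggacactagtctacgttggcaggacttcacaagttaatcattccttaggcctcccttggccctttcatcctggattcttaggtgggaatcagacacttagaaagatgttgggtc
The word began 36 and 18 bases before the start in Atp6v0b and 131 bases before it in Atp6v1a. In Atp6v0d1 it began 3 bases before the start and spanned it. These starts are those of RefSeq. The stretches of Atp6v1a, Clcn4 and Atp6v0e lie inside the gene as annotated in GENCODE M21, so another annotated start lies further upstream. In Clcn7 it occurred 15 bases before the start and again just after it.

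In the V1 sector the catalytic core rose together. Atp6v1a (chr16:44085402-44139705 in GRCm38, GENCODE M21) encodes subunit A, which binds and hydrolyses ATP. Values are given in the order Female1, Female2, Male1, Male2 throughout, as TMM-scaled CPM. Atp6v1a measured 121, 132, 118 and 140 CPM in Low and 273, 386, 327 and 364 CPM in High. Every High library lay above every Low library, with a log2 fold change (High minus Low) of 1.40 (SE 0.16, edgeR adjusted p = 8.82e-05). Atp6v1b2 (chr8:69088646-69113711), the widely expressed form of the partner subunit B, measured 92.1, 70.1, 72.3 and 88.7 CPM in Low and 297, 380, 310 and 412 CPM in High. The fractions were again separate, and the log2 fold change was 2.11 (SE 0.18, edgeR adjusted p = 2.06e-05). Its kidney and inner ear counterpart Atp6v1b1 was too low to test, at 0.114 ± 0.0712 CPM in Low and 0.0737 ± 0.0518 CPM in High (SD, n = 4 each).

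The rotor and stalk subunits of V1 followed the same direction. Atp6v1d (chr12:78840725-78861638), the central rotor shaft, measured 46.6, 50.6, 39.6 and 58.0 CPM in Low and 140, 236, 154 and 217 CPM in High. These groups did not overlap, and Female2 and Male2 were the higher pair in both fractions (log2 fold change 1.94, SE 0.21, edgeR adjusted p = 7.22e-05). Atp6v1e1 (chr6:120794305-120822793), of the peripheral stalk, measured 114, 98.5, 102 and 127 CPM in Low and 250, 280, 248 and 320 CPM in High. Here too the fractions were separate (log2 fold change 1.32, SE 0.15, edgeR adjusted p = 9.89e-05). Atp6v1g1 (chr4:63544772-63550750), its stalk partner, measured 49.8, 42.9, 42.2 and 48.5 CPM in Low and 90.0, 124, 91.1 and 92.8 CPM in High. High Female2 stood above the other High libraries, and all 4 lay above Low (log2 fold change 1.11, SE 0.15, edgeR adjusted p = 0.000196).

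Smaller rises were measured for Atp6v1h and Atp6v1f. Atp6v1h, a regulatory subunit that joins V1 to V0, went from 56.9 ± 3.69 to 108 ± 8.68 CPM (log2 fold change 0.92), and Atp6v1f, a rotor subunit, from 37.1 ± 1.78 to 59.8 ± 7.49 CPM (0.69, which lost its call under total counts). The nervous system form Atp6v1g2 stayed near 1 CPM and did not pass the test (log2 fold change −0.17, SE 0.48, edgeR adjusted p = 0.811). Its sign turned when either library of Male2 was left out, to 0.04 without Low Male2 and 0.15 without High Male2. High Male2 held 0.206 CPM and the other High libraries 0.697 to 1.30 CPM. Atp6v1e2 and Atp6v1g3 were too low to test, as were Atp6v0d2, Atp6ap1l and Atp6v1fnb. The genes not tested had 0 to 18 counts per library.

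Subunit C of V1, which clamps the stalks during assembly, changed its isoform makeup. Atp6v1c2 (chr12:17284721-17329359), a form described in kidney, lung and epidermis, measured 3.21, 4.54, 0.870 and 6.28 CPM in Low and 47.2, 54.1, 36.6 and 57.1 CPM in High. It was 13.1-fold higher in High (log2 fold change 3.71, SE 0.47, edgeR adjusted p = 0.000159), and Male1 was the lowest library of both fractions. Without Low Male2, which held the most Atp6v1c2 of the Low libraries, the log2 fold change was 4.34. The ubiquitous Atp6v1c1 (chr15:38661933-38692446) measured 33.5, 35.8, 30.1 and 35.7 CPM in Low and 43.3, 57.4, 48.3 and 55.7 CPM in High (log2 fold change 0.60, SE 0.14, edgeR adjusted p = 0.00534), a difference of 0.03 under total counts. Per kilobase of exon, Atp6v1c2 made up 19.8, 24.6, 6.93 and 31.2% of subunit C in Low and 73.7, 70.8, 66.1 and 72.5% in High. It was thus the minor form in every Low library and the major form in every High library, at 20.6 ± 10.3% and 70.8 ± 3.33% (SD, n = 4 each). Such a share is taken within 1 library and does not depend on the scaling between libraries. It depends on the exon length of each gene, and without division by length Atp6v1c2 made up 9.44% in Low and 48.6% in High, so that it was not the major form on average.

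In the V0 sector, the a subunit forms the path of the protons and directs the pump to its membrane, and 4 genes encode it. Atp6v0a4 (chr6:38048483-38124586), the a4 form known from the acid-secreting cells of the kidney and epididymis, measured 7.01, 10.5, 2.76 and 14.4 CPM in Low and 96.2, 138, 113 and 150 CPM in High. All High libraries lay far above all Low libraries, by 14.3-fold (log2 fold change 3.84, SE 0.44, edgeR adjusted p = 8.82e-05). Other markers of kidney intercalated cells summed to 0.746 to 1.17 CPM in Low and 0.00 to 1.66 CPM in High, with Aqp6 at 0 in every library. In Low, Male1 had the least Atp6v0a4 and Male2 the most, the same order as their summed suprabasal markers (7803 and 23780 CPM). Part of the exons of Atp6v0a4 (5.2%) is shared with D630045J12Rik on the same strand.

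Atp6v0a1 and Atp6v0a2, the forms found in most cells and in the Golgi and endosomes, also rose. Atp6v0a1 (chr11:101009452-101063719) measured 43.8, 61.5, 41.5 and 61.8 CPM in Low and 183, 257, 215 and 285 CPM in High (log2 fold change 2.17, SE 0.21, edgeR adjusted p = 3.45e-05). Atp6v0a2 (chr5:124628576-124724455) measured 37.5, 40.5, 35.2 and 42.5 CPM in Low and 129, 156, 147 and 162 CPM in High (1.93, SE 0.14, edgeR adjusted p = 1.38e-05). Neither gene's fractions overlapped.

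Tcirg1 (chr19:3896050-3907133), the a3 form that acidifies the resorption space of osteoclasts and is found on lysosomes, did not share this rise. It measured 34.4, 23.6, 39.8 and 24.1 CPM in Low and 22.6, 17.3, 27.1 and 28.0 CPM in High, and the fractions overlapped. High was lower than Low in 3 of 4 animals and higher in Male2 (log2 fold change −0.38, SE 0.20, edgeR adjusted p = 0.156). Without Low Male2 the value was −0.51 and under total counts −0.93, each called lower, and the adjusted p ran from 0.00582 to 0.389 over the alternatives tried. Markers of osteoclasts and macrophages summed to 82.6 to 96.5 CPM in Low and 74.4 to 82.1 CPM in High, mostly Acp5, and their part in the level of Tcirg1 was not tested.

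The makeup of subunit a therefore differed between the fractions. Per kilobase of exon, Atp6v0a4 made up 6.67, 9.35, 2.68 and 12.1% of subunit a in Low and 27.1, 29.5, 27.3 and 29.1% in High. Tcirg1 made up 35.3, 22.7, 41.7 and 21.9% in Low and 6.88, 4.00, 7.07 and 5.86% in High. Neither share overlapped between the fractions, and within Low the animals with more Tcirg1 had less Atp6v0a4, as shares of a common total. The shares of Atp6v0a1 (35.8 ± 5.51% in Low, 40.5 ± 1.48% in High) and Atp6v0a2 (26.1 ± 0.645% and 25.2 ± 1.65%) did overlap.

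**Figure D3:**
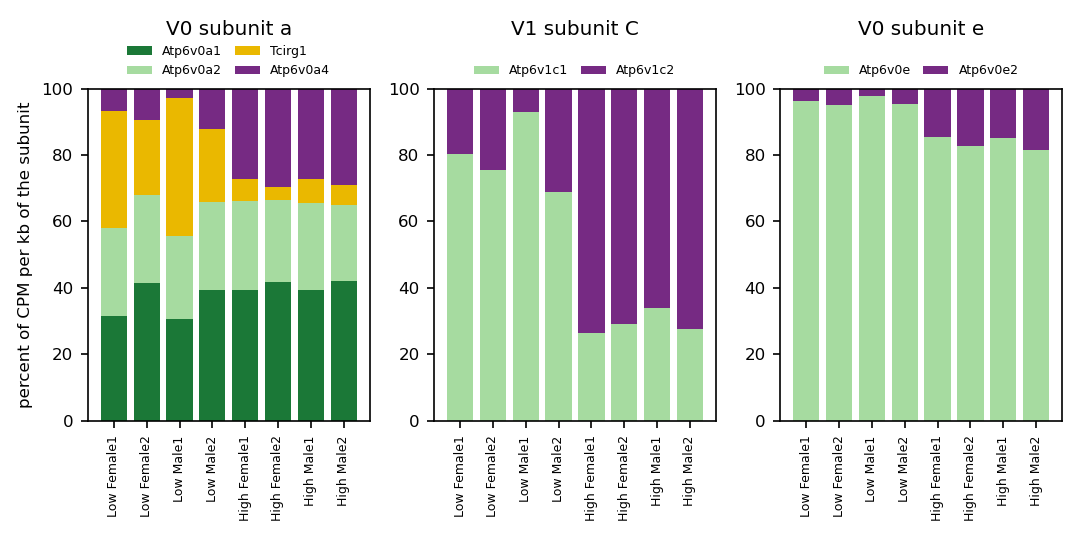
Percent of each gene among the isoforms of V0 subunit a, V1 subunit C and V0 subunit e, from CPM per kilobase of exon, with 1 stacked bar per library. The mean share of Atp6v0a4 is 7.70% in the Low and 28.3% in the High libraries, that of Atp6v1c2 20.6% and 70.8%, and that of Atp6v0e2 3.88% and 16.3%.

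**Figure D4:**
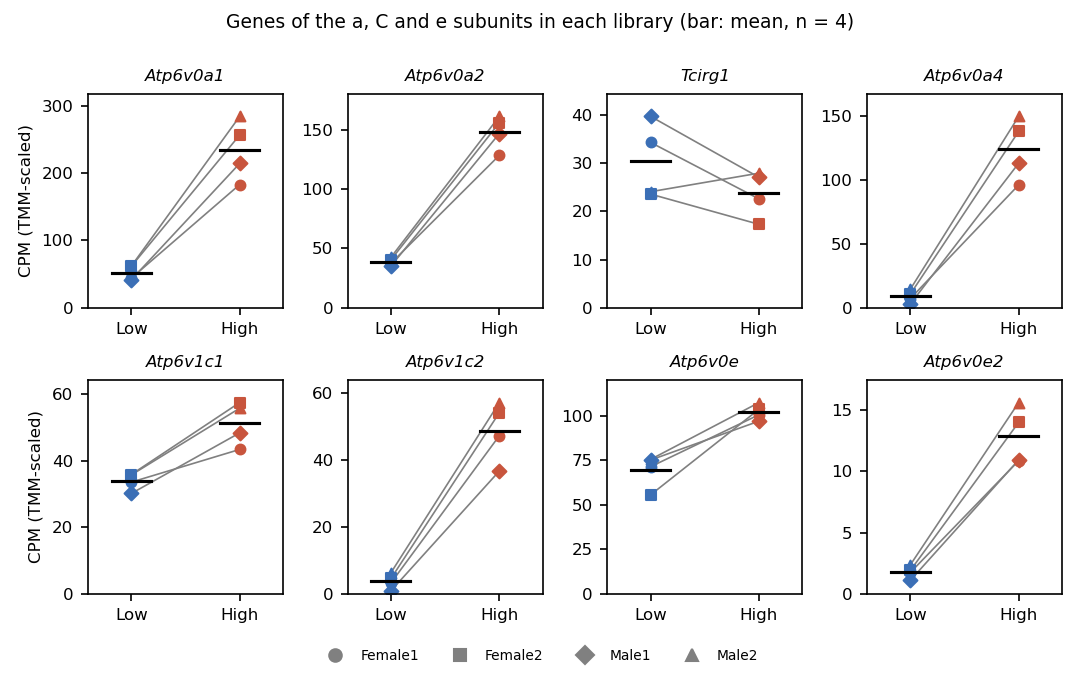
TMM-scaled CPM of the isoform genes in each library, with animals joined between fractions and the mean of 4 libraries as a bar. Atp6v0a4 and Atp6v1c2 have separate fractions, whereas the values of Tcirg1 overlap.

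The rotor and ring of V0 rose as well. Atp6v0d1 (chr8:105524465-105566047) encodes subunit d, which couples the V1 shaft to the membrane ring. It measured 45.7, 58.8, 41.2 and 75.8 CPM in Low and 249, 323, 252 and 392 CPM in High, 5.49-fold higher with no overlap (log2 fold change 2.46, SE 0.24, edgeR adjusted p = 3.72e-05). Male2 was the highest library of both fractions. Its osteoclast counterpart Atp6v0d2 was at 0.309 ± 0.168 CPM in Low and 0.261 ± 0.229 CPM in High. Atp6v0b (chr4:117884326-117887333), the c″ subunit of the ring, measured 76.5, 52.6, 67.9 and 59.6 CPM in Low and 175, 159, 183 and 171 CPM in High. Its fractions were separate and its High libraries were close to each other (log2 fold change 1.42, SE 0.15, edgeR adjusted p = 6.46e-05).

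Atp6v0c (chr17:24163866-24169702), the proton-binding c subunit that makes up most of the ring, measured 34.3, 33.2, 33.8 and 46.0 CPM in Low and 98.4, 117, 97.5 and 191 CPM in High. Male2 stood above the other animals in both fractions, and High exceeded Low in all 4 (log2 fold change 1.76, SE 0.22, edgeR adjusted p = 0.000130). Its level is uncertain, because the annotated pseudogene Atp6v0c-ps2 is 99.7% identical to it over 387 bases and carried more counts than the gene, at 79.3 ± 13.1 CPM in Low and 271 ± 76.8 CPM in High. Summed with its copies Atp6v0c gave a log2 fold change of 1.77.

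Among the small membrane subunits, the less common form of subunit e rose most. Atp6v0e2 (chr6:48537615-48541801) measured 1.73, 1.90, 1.09 and 2.35 CPM in Low and 10.9, 14.0, 10.9 and 15.6 CPM in High, a 7.25-fold difference without overlap (log2 fold change 2.86, SE 0.26, edgeR adjusted p = 2.67e-05). Its paralog Atp6v0e went from 69.5 ± 9.41 to 102 ± 4.45 CPM (log2 fold change 0.56, edgeR adjusted p = 0.00665), and by 0.00 under total counts. Atp6v0e2 remained the minor form, with 3.88 ± 1.26% of subunit e per kilobase in Low and 16.3 ± 1.94% in High. Rnasek, reported as subunit f, had 28 to 45 counts per library and did not pass the test (log2 fold change 0.25, SE 0.27, edgeR adjusted p = 0.492, and −0.32 under total counts). Its counts cannot be read as its level, since 67.7% of its exon bases are shared with Gm21988 on the same strand.

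Summed over isoforms and divided by exon length, the subunits kept unequal levels. In Low, subunit G had the highest level of V1 at 40.8 ± 3.46 CPM per kilobase, then F at 34.9 ± 1.68, E at 26.8 ± 3.12, A at 21.1 ± 1.70, B at 15.3 ± 2.11, D at 10.6 ± 1.67, C at 7.74 ± 1.50 and H at 5.84 ± 0.379. In High the order was G (87.8 ± 14.2), E (66.8 ± 8.26), B (66.0 ± 10.4), F (56.3 ± 7.04), A (55.8 ± 8.18), D (40.5 ± 10.2), C (31.6 ± 5.03) and H (11.0 ± 0.890). Some neighbours in these orders overlapped between libraries. In High, E, B, F and A overlapped, D overlapped F and A above it and C below it, and in Low, C overlapped D above it and H below it. In V0, subunit d went from 31.0 ± 8.66 to 170 ± 37.7 CPM per kilobase and a from 22.1 ± 1.44 to 88.1 ± 13.9, so that d, whose Low values overlapped those of c″ (31.3 ± 5.03), lay above a and c″ in every High library. Subunit c was left out of this order, because more counts stand under its near-identical pseudogene than under the gene. The orders rest on the division by exon length, which differs between genes. Without it, H (Atp6v1h, 56.9 CPM in Low) stood above F (Atp6v1f, 37.1 CPM). Undivided, the High mean of Atp6v0d1 (1.79 kilobases of exon) was 304 CPM. Those of Atp6v0a1 and Atp6v0a2 (6.56 and 6.73 kilobases) were 235 and 148 CPM, so that subunit a then stood above d.

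Both accessory proteins with enough counts rose. Atp6ap1 (chrX:74297097-74304721), which is built into V0 and guides its assembly in the endoplasmic reticulum, measured 85.7, 85.9, 86.4 and 99.2 CPM in Low and 192, 237, 207 and 265 CPM in High (log2 fold change 1.34, SE 0.15, edgeR adjusted p = 7.22e-05). Atp6ap2 (chrX:12587801-12617049), the (pro)renin receptor and a second accessory subunit, measured 83.5, 55.9, 72.8 and 83.8 CPM in Low and 172, 264, 200 and 215 CPM in High (1.53, SE 0.19, edgeR adjusted p = 0.000156). The fractions did not overlap for either gene, and Female2 was the lowest Low and the highest High library of Atp6ap2.

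The rabconnectin complex, which brings V1 and V0 together, divided into members that rose and a member that fell. Rogdi (chr16:5008730-5013553) measured 5.78, 5.20, 5.09 and 4.95 CPM in Low and 12.2, 11.9, 11.6 and 16.3 CPM in High (log2 fold change 1.30, SE 0.17, edgeR adjusted p = 0.000180). Dmxl1 went from 45.6 ± 0.980 to 93.6 ± 18.2 CPM (1.04, edgeR adjusted p = 0.000500), and Wdr7 from 12.5 ± 1.32 to 24.1 ± 5.30 CPM (0.94, edgeR adjusted p = 0.00210). Their fractions did not overlap.

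Dmxl2 (chr9:54365158-54501626), the paralog of Dmxl1 known from synaptic vesicles, was the only tested gene of the 32 called lower. It measured 8.49, 7.92, 8.48 and 7.00 CPM in Low and 5.13, 3.09, 3.93 and 1.65 CPM in High. Each High library lay below each Low library (log2 fold change −1.22, SE 0.29, edgeR adjusted p = 0.00582). Without High Male2 it was −0.99 and with Male2 left out of both fractions −0.98, and it stayed called in every alternative, with adjusted p from 1.08e-05 to 0.0314. In High, Dmxl2 was highest in Female1 and lowest in Male2, as were the summed markers of leukocytes, fibroblasts, neurons (5.71 to 29.4 CPM in High, 11.6 to 16.6 CPM in Low), endothelium and muscle. In Low, Dmxl2 was again highest in Female1, as were the sums of leukocytes, endothelium and muscle. It was lowest there in Male2, where none of the marker sums named here was lowest. From Low to High, Dmxl2 and the muscle sum fell in every animal. The sums of leukocytes, fibroblasts, neurons and endothelium fell in Female2 and Male2 but rose in Female1 and Male1. The part of these cell types in the fall of Dmxl2 was not tested.

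Among the ClC proteins, which exchange chloride for protons on endosomes and lysosomes, 3 rose and 2 did not pass the test. Clcn5 (chrX:7153810-7319358), the exchanger of early endosomes, measured 10.1, 7.92, 7.49 and 9.57 CPM in Low and 39.4, 46.3, 44.8 and 36.7 CPM in High (log2 fold change 2.25, SE 0.16, edgeR adjusted p = 1.33e-05). The fractions were far apart, and no animal stood out. Clcn3 (chr8:60910389-60983300), of late endosomes, measured 57.2, 49.8, 47.4 and 56.3 CPM in Low and 141, 184, 168 and 168 CPM in High (1.65, SE 0.15, edgeR adjusted p = 2.33e-05).

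The lysosomal pair of Clcn7 and its beta subunit Ostm1 both rose. Clcn7 (chr17:25133391-25162104), the exchanger of lysosomes and of the osteoclast border, measured 30.2, 26.6, 29.9 and 28.6 CPM in Low and 75.6, 77.7, 94.4 and 108 CPM in High. The Low libraries were nearly equal, and the High libraries all exceeded them (log2 fold change 1.61, SE 0.14, edgeR adjusted p = 1.96e-05). Ostm1, which stabilises Clcn7, went from 13.4 ± 1.73 to 23.5 ± 3.56 CPM (0.81, SE 0.16, edgeR adjusted p = 0.00248), and its call was lost under total counts.

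Clcn6 (chr4:148004259-148038821), of late endosomes, was lower in High in all 4 animals but near the threshold. It measured 12.2, 8.52, 11.1 and 9.30 CPM in Low and 6.44, 6.97, 7.28 and 9.11 CPM in High, and only High Male2 reached into the range of Low. The log2 fold change was −0.47 (SE 0.18, edgeR adjusted p = 0.0544). In the fit with a replicate block for the animal, which pairs the libraries of each mouse, it was −0.46 and called (edgeR adjusted p = 0.0489), and over the alternatives tried the adjusted p ran from 0.000651 to 0.135. It was also called under total counts (−1.04), with at least 10 counts in every library (−0.49), with no covariate (−0.46), and without Low Female2 (−0.53), Low Male2 (−0.53) or High Male2 (−0.57). Clcn4 measured 55.5 ± 4.42 CPM in Low and 65.4 ± 7.36 CPM in High and did not pass the test (log2 fold change 0.24, SE 0.13, edgeR adjusted p = 0.166, and −0.32 under total counts).

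**Figure D5:**
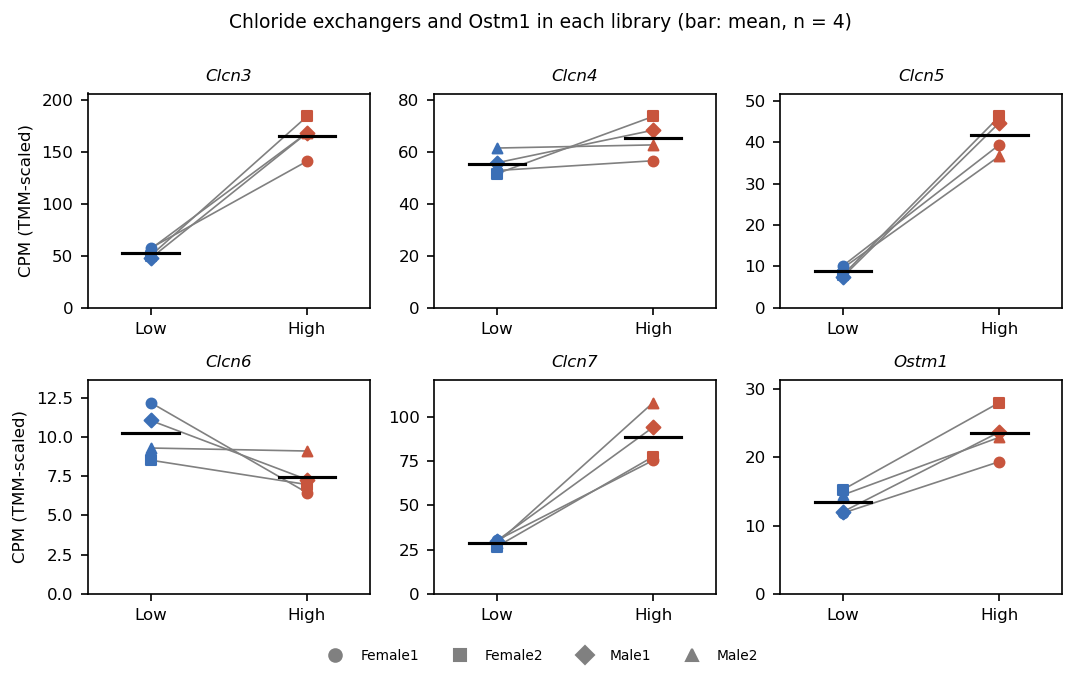
TMM-scaled CPM of the 5 ClC exchangers and Ostm1 in each library, with the libraries of an animal joined and the mean of 4 as a bar. Clcn3, Clcn5, Clcn7 and Ostm1 lie higher in all High libraries, and Clcn6 lies lower in High in each animal.

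Genes around the pump were followed as separate lists. Of 7 factors of V-ATPase assembly in the endoplasmic reticulum and TLDc-domain proteins that bind the pump, 6 were tested, with 1 higher and 1 lower, where 23.4% and 25.3% of all genes tested were so called. Their median log2 fold change was 0.23 (−0.34 under total counts). Ncoa7, a TLDc protein, fell from 17.5 ± 3.83 to 2.54 ± 0.317 CPM (log2 fold change −2.77, edgeR adjusted p = 1.27e-05). Tmem199, an assembly factor, rose by 0.67, and its call was lost under total counts. Oxr1 of the same list was not called (−0.26) but became called lower under total counts (−0.84, edgeR adjusted p = 0.00184). There 49.1% of all genes tested were called lower. Meak7, the TLDc protein formerly named Tldc1, went from 7.77 ± 2.01 to 10.9 ± 2.35 CPM and did not pass the test (0.50, SE 0.22, edgeR adjusted p = 0.0856).

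Of 10 genes of the Ragulator, the Rag GTPases and Slc38a9, which work beside the V-ATPase in nutrient sensing at the lysosome, 9 were tested and 5 rose (23.4% of all genes tested did), with a median of 0.83. Lamtor1, the Ragulator anchor, rose by 1.10 and Slc38a9, an arginine sensor, by 1.09 on the log2 scale, and these 2 were the calls kept under total counts, where 12.6% of all genes were called higher. Of 12 other endolysosomal cation channels, exchangers and partners of ClC proteins, 10 were tested, with 6 higher and 1 lower (23.4% and 25.3% over all genes tested) and a median of 0.81. Under total counts 5 of these calls were kept, and Tpcn2 (0.10) and Mcoln1 (0.27), both cation channels, lost theirs. Tpcn1, a cation channel of endolysosomes, went from 21.6 ± 5.36 to 105 ± 34.1 CPM (log2 fold change 2.27) and Tmem9b from 22.1 ± 4.44 to 77.0 ± 22.3 CPM (1.80). Its paralog Tmem9, a partner of ClC exchangers that also binds the V-ATPase, fell from 15.4 ± 2.79 to 3.68 ± 0.526 CPM (−2.06). The only proton pump of another class with enough counts, the potassium-exchanging Atp12a, fell from 9.47 ± 5.78 to 0.774 ± 0.882 CPM (−3.57, SE 0.65, edgeR adjusted p = 0.00139). Without High Male2, which held 2.01 CPM of Atp12a, it was −4.27.

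The response was also compared between the sexes. The interaction of sex and fraction was called for 0 of 17344 genes by edgeR (19 at an unadjusted p under 0.05), and for 0 of the 32 genes described here, of which 0 had an unadjusted p under 0.05. Uniform p-values would give 867 such genes, so with 2 animals of each sex this test was too conservative to show whether the sexes respond alike. It did not use the pairing of libraries by animal.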

How the data were processed

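Bulk RNA from sorted cells gave 8 libraries. A single table, deposited by the authors, holds raw counts for each gene symbol, as its whole-number values show. STAR 2.7.3, DESeq2 and GRCm38 are named, without a role, per the submitters' processing notes. The counting tool, annotation and use of strand are not given in the sources used here, so reads of overlapping genes and near-identical copies may be split. No molecular identifiers are named.

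The analysis used edgeR 4.0.16 under R 4.3.3: filterByExpr (17344 of 55276 genes kept), TMM scaling, and glmQLFit and glmQLFTest of Cyto-ID High against Low over all 8 libraries with sex as a covariate. P-values were two-sided and adjusted by the Benjamini-Hochberg method over all genes tested (threshold 0.05). Each SE came from the fold change and its F statistic. Exon lengths, gene positions and overlaps came from GENCODE M21 (GRCm38) by symbol, and promoters from RefSeq. On data simulated for this comparison, the test recovered 65.0% of 200 genes changed by 1.50 (log2) and called 9 others of 16966 tested. The simulation changed only these 200 genes, equally up and down, and held no effect of the animal. In the data 48.7% of genes were called, so these rates do not carry over to the comparison itself.

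Each animal's name pairs a Low with a High library. Deviations from the fraction means correlated across genes within an animal by 0.43 (Female1), 0.32 (Female2) and 0.28 (Male2), but by −0.02 for Male1, whose pairing rests on its name.

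The genes and lists were chosen with earlier results of these data known. Values in every library are given for the 20 called genes with the largest changes among those averaging 5 CPM or more whose sign was the same in all 4 animals. Isoforms of the same subunit are named with their level, and of other lists the called genes with the 2 largest changes in each direction. Atp6v1c1, Tcirg1 and Clcn6 are given per library beyond this rule. Alternatives were RLE size factors, total counts, no filter, at least 10 counts in every library, DESeq2 1.42.0, no covariate, a replicate block for each animal, shares without division by length, and each library left out in turn. After the data were seen, leaving out Male2 and summing Atp6v0c with its copies were added.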

Additional observations from a re-analysis of the deposited data

Results flagged for a closer look

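Of 64 groups of 4 libraries tested by Dixon's criterion (critical value 0.829), 5 held a library that stood apart from the other 3, and chance alone singles out about 1 in 20 groups. In Cyto-ID High, Female2 stood above the others for Atp6v1g1 at 124 CPM, and Male2 for Rogdi at 16.3 CPM. In Cyto-ID Low, Male2 stood above the others for Atp6v0c at 46.0 CPM and for Atp6ap1 at 99.2 CPM, and Male1 lay below the others for Dmxl1 at 44.1 CPM, where the 4 Low libraries spanned only 44.1 to 46.2 CPM. Each of these 5 genes rose in High with separate fractions, and each stayed called when any 1 library was left out.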

How the results depend on the processing

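All 27 called genes kept their direction in every alternative tried (up to 17 per gene), and 22 also kept the call. The other 5 (Atp6v1c1, Atp6v1f, Atp6v0e, Wdr7 and Ostm1) lost it only under total counts. The number called was 27 to 29 with each library left out (41.0% to 46.0% of all genes tested were called there), 28 with the replicate block (53.8%), where Clcn6 was the call gained, and 27 with DESeq2 (49.6%). The block changed no other call among these genes. The number called lower was 3 under total counts (49.1% of all genes tested), 2 with at least 10 counts (29.6%), no covariate (26.1%) or the replicate block (28.5%), and 1 to 3 with a library left out (20.6% to 24.1%).

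Under total counts, 2194 of all genes were called higher and 8514 lower. The medians then were 0.75 for all genes described here, 0.64 for V1, 1.26 for V0, 0.86 for the accessory genes, 0.42 for assembly, 0.64 for chloride, 0.24 for the Ragulator list (2 called), 0.25 for the channels and −0.34 for assembly factors and TLDc proteins. The log2 fold changes of Rnasek (−0.32), Clcn4 (−0.32), Vma21 (−0.42), Ccdc115 (−0.26), Lamtor3 (−0.28), Lamtor5 (−0.34), Rraga (−0.22), Tmem175 (−0.37) and Pacc1 (−0.35) turned negative there, and none had been called. With no filter the median was 1.07 for all, 0.88 for V1 and 0.30 for the other proton pumps, as more low genes entered. With a library left out, medians ran from 0.08 to 0.35 for assembly factors and TLDc proteins and from 0.56 to 0.90 for the channels; Atp6v1g2 ran from −0.71 to 0.15 (0.29 without Male2) and Vma21 from −0.09 to 0.29. Tpcn2, called higher, lost its call in 6 of the 8 such fits.

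Without division by exon length, the shares were 44.0% for Atp6v0a1 in High, 29.9% and 28.1% for Atp6v0a2 in Low and High, 4.54% for Tcirg1 in High and 23.3% for Atp6v0a4 in High. They were 9.44% and 48.6% for Atp6v1c2 and 2.53% and 11.1% for Atp6v0e2. Depth did not allow a test of the 6 genes with 0 to 18 counts per library.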
